A study of Rattus norvegicus with 4 samples.

Results

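Nuclear receptors, the family of ligand-regulated and orphan transcription factors that includes the oestrogen receptors, were examined in rat soleus, a slow postural muscle of the hindlimb. The family was given as 36 gene symbols, and each probe set annotated to exactly 1 of these symbols was taken. This gave 63 probe sets for 35 genes, out of 20826 probe sets with 1 symbol for 14217 genes on the array. The remaining gene, Nr6a1, was not analysed here. Of the 35 genes, 19 had 1 probe set and 16 had several. Each gene is described by its brightest probe set, chosen on the mean of its log2 signals over the arrays, and the others are given where they differ.

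The 4 groups were male Wistar rats on a genistein diet with the nerve cut, on a genistein diet with sham surgery, on a control diet with the nerve cut, and on a control diet with sham surgery. Genistein, an isoflavone of soy and a ligand of both oestrogen receptors, made up 0.05% of an AIN-93G diet (0.5 g per kg), and the control rats ate a modified AIN-93G diet with corn oil in place of soybean oil. Rats entered at 10 weeks of age, ate their diet for 24 days, and carry an age label of 14 weeks. The left sciatic nerve was excised on day 14 and the right leg of the same animal was sham-operated, so the sham muscle is the opposite leg of a rat that had lost a nerve, and muscles were taken 10 days later. RNA of 8 rats was pooled per group and each pool was hybridised to 1 Affymetrix array, so no value has a replicate, no test was possible and no p-value is given. The study's title names oestrogen receptor alpha, and the comparisons ask how receptor mRNA stood with nerve loss and with genistein.

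Nuclear receptors bind DNA through a pair of zinc fingers, and most carry a pocket for a small lipophilic ligand such as a steroid, thyroid hormone, retinoic acid or an oxysterol. Steroid receptors are held by chaperones until hormone arrives, whereas thyroid hormone, retinoic acid and liver X receptors sit on DNA with a retinoid X receptor and exchange corepressors for coactivators. In skeletal muscle, thyroid hormone receptors set fibre type and metabolic rate, the glucocorticoid receptor drives protein breakdown, and the NR4A orphan receptors are induced quickly by contraction and adrenergic signals.

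Signals are in the arrays' own units, and the background floor was the 40th percentile of all probe sets other than controls on the 4 arrays, 78.9 units. Between 58.48% and 60.84% of probe sets reached the floor on each array. The treatment field of 2 samples contradicts their titles, so groups were taken from the titles, and 8 of 8 muscle genes known to respond to nerve loss were at least 2-fold higher in denervated muscle on each diet. Chrna1, a subunit of the muscle acetylcholine receptor, read 16186 units in genistein denervated, 1589 in genistein sham, 20550 in control denervated and 1860 in control sham muscle. Chrng, its fetal subunit, read 1046 and 881 units in genistein denervated and control denervated muscle and was under the floor in both sham pools. Myog, a muscle regulatory factor, read 10099 units in genistein denervated, 2373 in genistein sham, 10678 in control denervated and 3030 in control sham muscle. All 9 slow-fibre markers were above the floor on every array. This is a weak check of the tissue label, since 78.5% of all genes reached the floor on at least 1 array. As a measure of RNA quality, actin's 3′ probe set divided by its 5′ one gave 2.76 in genistein denervated, 2.32 in genistein sham, 3.79 in control denervated and 2.08 in control sham muscle. The same ratio for GAPDH gave 1.13, 1.20, 1.14 and 1.24 in these pools, so it was not higher in denervated muscle. A ratio with 1 array below the floor was taken against the floor and is a lower bound, written as "at least".

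Of the 35 receptors, 22 reached the floor on at least 1 array, which is 62.9% of them against 78.5% of all genes. Above the floor on all 4 arrays were 18 receptors, 4 reached it on some arrays, and 13 stayed below it throughout. With the floor at the 20th percentile, 27.2 units, 32 of the 35 reached it and 3 did not, which were Esr1, Esr2 and Nr1h4. Neither oestrogen receptor reached it. Esr1, oestrogen receptor alpha, read 7.9 units in genistein denervated, 8.0 in genistein sham, 3.3 in control denervated and 4.7 in control sham muscle. Esr2, oestrogen receptor beta, read 11.3, 3.6, 6.7 and 3.8 units in genistein denervated, genistein sham, control denervated and control sham muscle. Each was measured by a single probe set, and a reading under the floor gives no ratio and does not show that the mRNA was absent. Pgr, the progesterone receptor and itself a well-known oestrogen target, read 40.9 units in genistein denervated, 33.3 in genistein sham, 38.0 in control denervated and 34.2 in control sham muscle. Pgr was above the lower floor of 27.2 units on every array, while both oestrogen receptors were under it on every array.

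The other receptors below the floor were Vdr (vitamin D), Rxra (retinoid X receptor alpha), Nr1h4 (the bile acid sensor FXR), Nr1i3 (the xenobiotic sensor CAR), Nr2c2, Nr2f1, the steroidogenic regulators Nr5a1 and Nr0b1, Nr5a2 and Hnf4a, the last 2 best known from liver. Over all probe sets of the 13 genes below the floor the readings lay between 2.9 and 78.0 units. The highest was Nr2c2 in control sham muscle, 78.0 units, just under the floor, while Nr2c2 read 12.8 to 44.5 units on the other arrays (35.7 in genistein denervated, 44.5 in genistein sham and 12.8 in control denervated muscle). Vdr ranged from 4.8 units in control sham to 61.5 units in control denervated muscle. Rxra, a receptor usually regarded as widely expressed, read 8.9 units in genistein denervated, 37.8 in genistein sham, 12.5 in control denervated and 5.4 in control sham muscle on its only probe set. Just inside the floor were Nr1i2, the pregnane X receptor, at 106, 95.3, 76.1 and 87.3 units in genistein denervated, genistein sham, control denervated and control sham muscle, and Rarg, retinoic acid receptor gamma, which reached it only in control sham muscle (93.9 units).

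**Figure D1:**
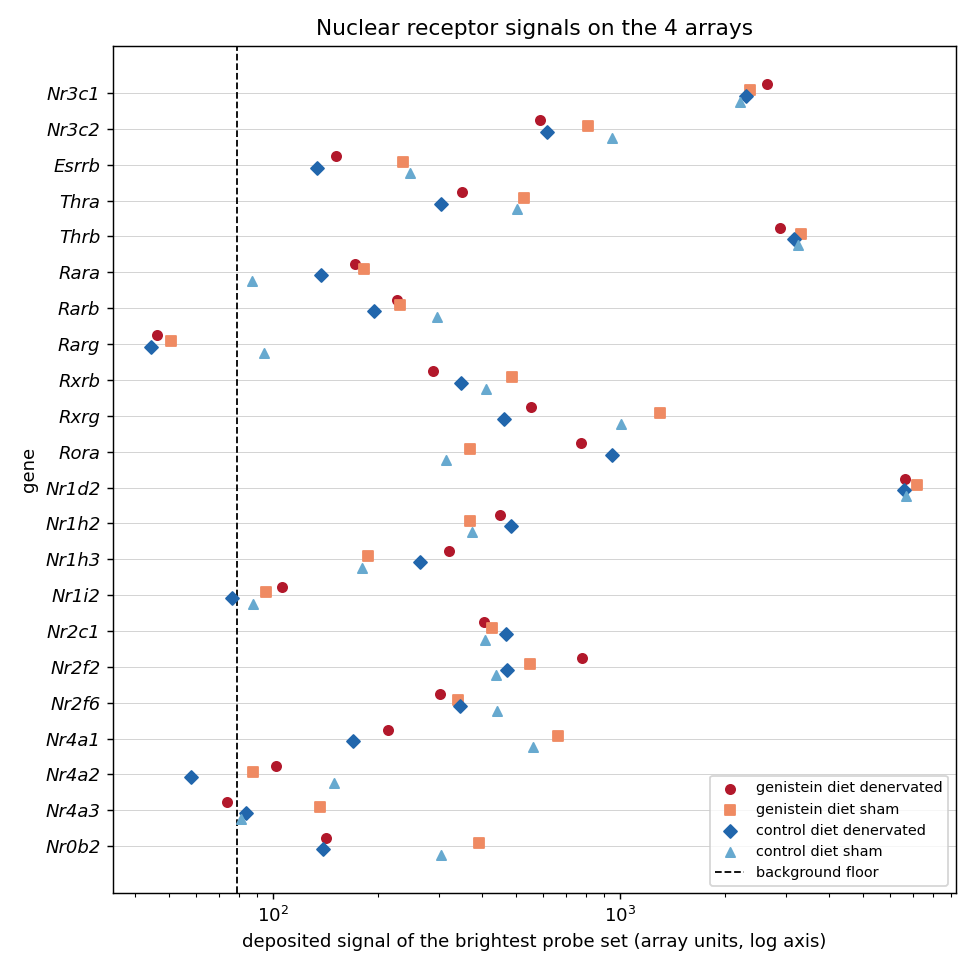
Deposited signal of the brightest probe set of the 22 receptors that reached the background floor, on a log axis, with 1 point per array (genistein diet denervated, genistein diet sham, control diet denervated, control diet sham). The dashed line is the floor of 78.9 units; points are to be compared within a row only, and the denervated points of Rxrg, Nr4a1 and Nr0b2 lie left of the sham points while those of Rora lie right of them.

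With the nerve cut, 4 receptors differed from sham by at least 2-fold, and they were the same 4 on both diets. Rora was higher, and Nr4a1, Rxrg and Nr0b2 were lower. Among the measured receptors 1 of 21 was at least 2-fold higher on genistein, where 4.96% of all genes were, and 1 of 22 on the control diet, where 5.04% were. At least 2-fold lower were 3 of 21 on genistein, against 6.57% of all genes, and 3 of 22 on the control diet, against 7.63%. The median log2 ratio over the measured receptors was -0.12 on genistein and -0.19 on the control diet, beside 0.02 and -0.00 over all genes. Of the 18 receptors above the floor on all arrays, 11 were lower and 5 higher in denervated muscle on both diets, 5 were lower by at least 0.5 log2 units on both, and 4 were within 0.25 of sham on both. The same counts were not set against all genes, so they do not show that receptors differ from other genes. In whole muscle fewer cells of a type and less RNA per cell cannot be told apart. Other genes moved in the same comparisons: the medians were -1.03 on genistein and -1.05 on the control diet for the 9 slow-fibre markers, -0.61 and -1.18 for 8 fibroblast markers, -0.41 and -1.02 for 7 endothelial markers, and 1.01 and -0.17 for the adipocyte markers measured. Their part in the receptor values was not tested.

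Rora, the RAR-related orphan receptor alpha, binds clock and lipid gene promoters and activates them. It read 774 units in genistein denervated and 370 in genistein sham muscle, and 945 units in control denervated and 315 in control sham muscle. Both denervated pools were above both sham pools, by 2.09-fold on genistein and 3.0-fold on the control diet (log2 ratios 1.06 and 1.58). A second, dimmer Rora probe set did not show this: it read 73.7 units in genistein denervated, 108 in genistein sham, 28.2 in control denervated and 73.1 in control sham muscle, near or under the floor, and its ratio on genistein was at least 0.45 log2 units lower. With the mean of both probe sets Rora was higher by 0.31 on genistein and 0.79 on the control diet, under 2-fold. On the control diet the dimmer probe set was under the floor in both pools. It therefore added no difference there and only made the mean ratio smaller.

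Nr1d2, REV-ERB beta, represses the kind of clock promoter that Rora activates. It read 6611 units in genistein denervated, 7183 in genistein sham, 6566 in control denervated and 6688 in control sham muscle. These 4 values span little, and the log2 ratios were -0.12 on genistein and -0.03 on the control diet. Both signs turned under quantile and spike-in scaling and with the mean of probe sets. The sign on the control diet also turned under median scaling (0.06). The second bright probe set of Nr1d2 gave 0.07 and 0.03, and a dim one 0.71 and 0.29.

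Nr4a1, the activity-induced orphan receptor Nur77, regulates glucose use genes in muscle. It read 215 units in genistein denervated and 662 in genistein sham muscle, and 170 units in control denervated and 561 in control sham muscle. Both denervated pools were well under both sham pools, by 3.08-fold on genistein and 3.31-fold on the control diet (log2 ratios -1.62 and -1.73). It was the only receptor that stayed at least 2-fold lower on both diets under every alternative tried, with log2 ratios between -1.73 and -1.14 on genistein and between -1.74 and -1.36 on the control diet. Nr4a1 has 1 probe set, so the mean of probe sets could not change its values.

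Rxrg, retinoid X receptor gamma, is the retinoid X receptor known from striated muscle, where it pairs with thyroid hormone and other receptors. Its brightest probe set read 553 units in genistein denervated and 1300 in genistein sham muscle, and 462 units in control denervated and 1003 in control sham muscle. The pools separated by operation, with 2.35-fold lower signal on genistein and 2.17-fold lower on the control diet. The other Rxrg probe set read 88.7 units in genistein denervated muscle and 53.3 to 67.8 units on the other arrays, and averaging both brought the log2 ratios to -0.53 and -0.56. On the control diet this probe set was under the floor in both pools, so it only made the mean ratio smaller.

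Nr0b2, the small heterodimer partner, lacks a DNA-binding domain and represses other nuclear receptors. It read 142 units in genistein denervated and 393 in genistein sham muscle, and 139 units in control denervated and 304 in control sham muscle. Denervated pools read alike and under both sham pools, by 2.77-fold on genistein and 2.18-fold on the control diet. Rxrg, Nr0b2 and Rora kept their direction under spike-in scaling, which moved the median of all genes up by 0.46 on genistein and 0.35 on the control diet. Rxrg and Nr0b2 were then under 2-fold on both diets. The lowest sizes under any alternative were 0.48 for Nr0b2 on the control diet and 0.53 for Rxrg on genistein. The first is only a bound, from a floor at the 60th percentile that the denervated reading did not reach. The second is the mean of probe sets.

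The 250 bases upstream of the annotated start of these 4 genes are shown because their mRNAs differed most between denervated and sham muscle. The sequences are RefSeq's for the rat assembly GRCr8, read 5′ to 3′ on the gene's strand, and 32 of the 36 receptors have such an entry. The windows are chr7:134259888-134260137 for Nr4a1, chr5:151062910-151063159 for Nr0b2, chr13:82276237-82276486 for Rxrg and chr8:78816005-78816254 for Rora, all on the plus strand. Capitals mark matches on either strand to any of 4 motifs. These are TGACG, the core of the cyclic AMP response element, and CANNTG, the E-box bound by myogenic factors and by clock factors. The others are the core that many nuclear receptors bind, written AGGTCA, and the box found shortly before the start of some genes, written TATAAA.
Nr4a1: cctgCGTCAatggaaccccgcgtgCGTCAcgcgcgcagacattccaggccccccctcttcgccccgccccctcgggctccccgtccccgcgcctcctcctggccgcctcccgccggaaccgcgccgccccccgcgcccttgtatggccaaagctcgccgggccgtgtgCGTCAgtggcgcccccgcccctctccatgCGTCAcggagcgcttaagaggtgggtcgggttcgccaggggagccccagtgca
Nr0b2: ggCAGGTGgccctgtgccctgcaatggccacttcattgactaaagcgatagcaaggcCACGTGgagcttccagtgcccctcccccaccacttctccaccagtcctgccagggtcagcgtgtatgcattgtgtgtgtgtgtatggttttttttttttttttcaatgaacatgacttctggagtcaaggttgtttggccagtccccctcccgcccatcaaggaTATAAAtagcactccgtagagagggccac
Rxrg: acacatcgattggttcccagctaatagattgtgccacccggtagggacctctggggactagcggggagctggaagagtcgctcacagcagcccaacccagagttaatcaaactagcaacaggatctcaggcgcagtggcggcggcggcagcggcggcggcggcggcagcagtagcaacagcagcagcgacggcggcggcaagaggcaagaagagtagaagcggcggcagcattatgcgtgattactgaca
Rora: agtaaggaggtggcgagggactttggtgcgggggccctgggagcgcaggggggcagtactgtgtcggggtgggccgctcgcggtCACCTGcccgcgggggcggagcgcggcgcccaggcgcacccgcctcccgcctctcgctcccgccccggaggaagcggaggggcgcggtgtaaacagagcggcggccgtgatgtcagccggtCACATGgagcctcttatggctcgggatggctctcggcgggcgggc

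Within this window Nr4a1 held 4 matches to TGACG, each as its reverse complement CGTCA, starting at -246, -226, -82 and -53 from the start site, and no match to the other 3 motifs. Of the 33469 upstream windows of the same length in the table, 18.22% held at least 1 TGACG and 0.173% held at least 4, and among the receptors with an entry 7 held at least 1. Nr0b2 held E-boxes CAGGTG at -248 and CACGTG at -193 and TATAAA at -29. Rora held E-boxes CACCTG at -166 and CACATG at -45, and Rxrg held none of these letters. An E-box was present in 65.54% of all windows, AGGTCA in 14.06% and TATAAA in 12.93%. None of these motifs overlapped another in the 4 windows, and a match describes the sequence only.

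**Figure D2:**
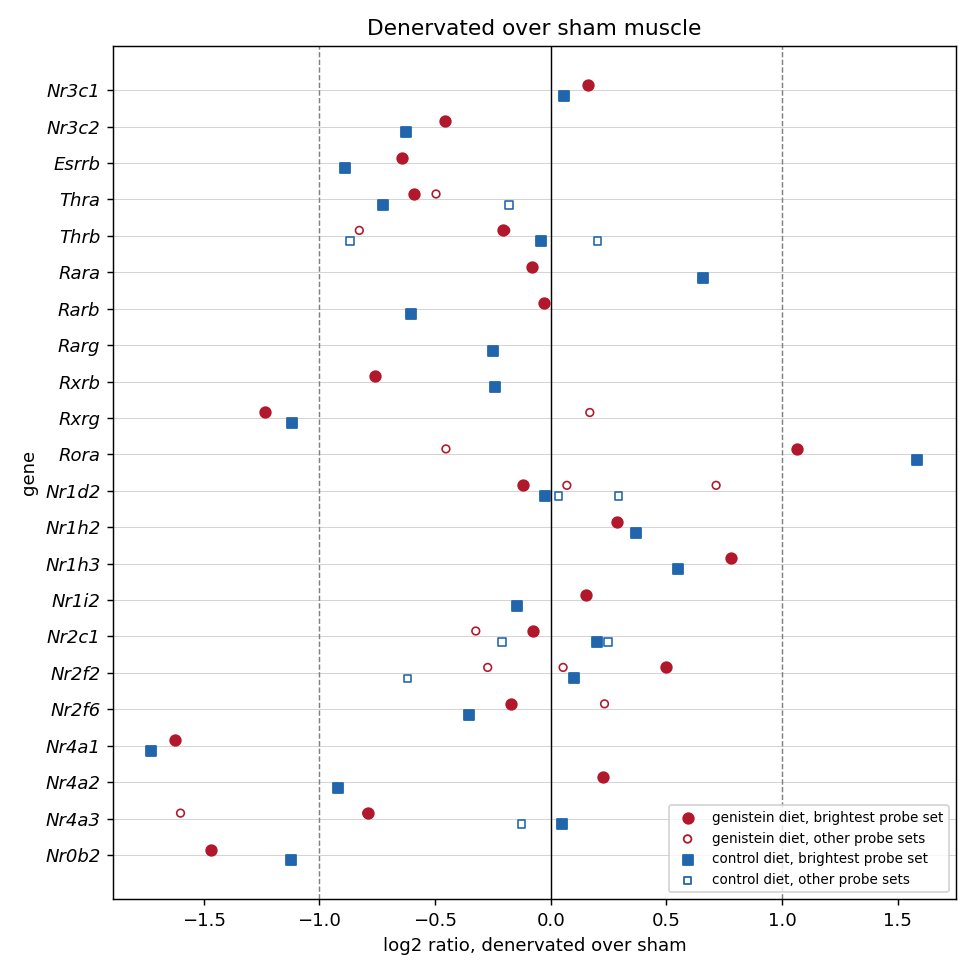
Log2 ratio of denervated over sham muscle for the 22 receptors, on the genistein diet (circles) and on the control diet (squares); filled symbols are the brightest probe set, open symbols the gene's other probe sets, dashed lines mark 2-fold. Rora lies past 2-fold on the right and Nr4a1, Rxrg and Nr0b2 on the left on both diets, and the open symbols of Rora, Rxrg and Thrb lie apart from the filled ones.

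The hormone receptors differed less. Nr3c1, the glucocorticoid receptor, read 2649 units in genistein denervated, 2367 in genistein sham, 2311 in control denervated and 2220 in control sham muscle. Its log2 ratios for nerve loss were 0.16 on genistein and 0.06 on the control diet, inside the scatter between probe sets of one gene, whose SD was 0.36 and 0.35. Nr3c2, the mineralocorticoid receptor, read 587 units in genistein denervated, 806 in genistein sham, 616 in control denervated and 949 in control sham muscle. Both denervated pools lay under both sham pools, with log2 ratios of -0.46 on genistein, which became 0.02 under spike-in scaling, and -0.62 on the control diet.

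Esrrb, oestrogen-related receptor beta, shares sequence with the oestrogen receptors, binds no oestrogen and acts on energy metabolism genes. It read 152 units in genistein denervated, 237 in genistein sham, 134 in control denervated and 248 in control sham muscle. The pools did not overlap by operation, and the log2 ratios were -0.64 on genistein and -0.89 on the control diet. Both ratios stayed negative under every alternative tried, and their size fell to -0.16 and -0.52 under spike-in scaling. With the floor at the 60th percentile, 217.5 units, both denervated readings were under it. The values of -0.12 and -0.19 found there are only bounds and do not show a smaller difference. Esrrb has 1 probe set, so the mean of probe sets could not change them.

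Thra, thyroid hormone receptor alpha, read 351 units in genistein denervated, 529 in genistein sham, 305 in control denervated and 504 in control sham muscle on its brightest probe set. Nerve loss went with log2 ratios of -0.59 on genistein and -0.73 on the control diet, and a second probe set gave -0.50 and -0.18. Thrb, thyroid hormone receptor beta, had 4 probe sets that did not move alike. The brightest read 2880 units in genistein denervated, 3327 in genistein sham, 3170 in control denervated and 3259 in control sham muscle (log2 ratios -0.21 and -0.04). A dimmer one read 99.2, 176, 91.6 and 167 units in genistein denervated, genistein sham, control denervated and control sham muscle (-0.83 and -0.87). The next gave -0.19 on genistein and 0.20 on the control diet, and the last was under the floor throughout.

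Among the retinoic acid receptors, Rara read 172 units in genistein denervated, 183 in genistein sham, 138 in control denervated and 87.1 in control sham muscle, so that the control sham pool stood alone at the low end. Rarb, a retinoic acid receptor whose own gene responds to retinoic acid, read 228, 232, 195 and 297 units in genistein denervated, genistein sham, control denervated and control sham muscle, with control sham alone at the high end. The denervation log2 ratios were -0.08 on genistein and 0.66 on the control diet for Rara, and -0.03 and -0.60 for Rarb. Under spike-in scaling they became 0.40 and 0.96 for Rara, and 0.45 and -0.24 for Rarb, so the diet with the larger Rarb ratio depends on the scaling. Rarg was at least 0.25 log2 units lower in control denervated than in control sham muscle and had no ratio on genistein. Rxrb, the broadly expressed retinoid X receptor beta, read 289 units in genistein denervated, 488 in genistein sham, 349 in control denervated and 412 in control sham muscle, with log2 ratios of -0.76 and -0.24, the second positive (0.13) under spike-in scaling.

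Both liver X receptors, sensors of oxysterols that switch on cholesterol export, stood higher in denervated muscle. Nr1h3, liver X receptor alpha, read 321 units in genistein denervated, 187 in genistein sham, 265 in control denervated and 181 in control sham muscle (log2 ratios 0.78 on genistein and 0.55 on the control diet). Nr1h2, liver X receptor beta, read 451, 369, 484 and 375 units in genistein denervated, genistein sham, control denervated and control sham muscle (0.29 and 0.37). For both genes the denervated pools lay above the sham pools, and the ratios stayed positive under every alternative tried. Nr1i2 stood close to the floor, with ratios of 0.15 and at least 0.15 log2 units in opposite directions.

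Of the orphan receptors of the NR2 group, Nr2c1, testicular receptor 2, read 404 units in genistein denervated, 426 in genistein sham, 468 in control denervated and 407 in control sham muscle (-0.08 and 0.20), while its second probe set gave -0.32 on genistein and was at least 0.21 lower on the control diet. Nr2f6, EAR2, read 303, 341, 347 and 442 units in genistein denervated, genistein sham, control denervated and control sham muscle (-0.17 and -0.35). The Nr2f6 value rests on a probe set of the kind Affymetrix marks as able to match several transcripts, and its other 4 probe sets were under the floor apart from 1 array. Nr2f2, COUP-TF II, known from veins and connective tissue, read 778 units in genistein denervated, 551 in genistein sham, 472 in control denervated and 440 in control sham muscle. Its log2 ratio for nerve loss was 0.50 on genistein and 0.10 on the control diet on this probe set, and 0.05 and -0.62 on the next.

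In denervated muscle no receptor differed by 2-fold between the diets. Higher on genistein were 0 of 21 receptors, against 1.02% of all genes, and lower were also 0 of 21, against 0.124%. The median log2 ratio of genistein over control was 0.18, beside 0.00 over all genes, and became -0.03 with the floor at the 60th percentile. Among receptors above the floor in both pools, Nr2f2 had the highest ratio, 0.72, with 0.62 on its next probe set, 0.45 with the mean of its probe sets and 0.59 after median scaling, which moved the median of all genes by -0.13. The Nr2f2 mean includes a probe set under the floor in both pools, which makes it smaller. Next among receptors above the floor in both pools were Nr4a1 (0.34), Rara (0.33), Nr1h3 (0.28) and Rxrg (0.26). For Nr1i2 (at least 0.42) and Nr4a2 (at least 0.37) there is only a bound, and with the floor at the 20th percentile Nr4a2 was at 0.82, above Nr2f2. At the low end were Rora (-0.29), Rxrb (-0.27) and Nr2c1 (-0.21). The probe-set SD for this comparison was 0.25.

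Between these 2 pools most markers of several other cell types were also higher on genistein, while most slow-fibre markers and the 2 satellite cell markers measured were lower. Of the 9 slow-fibre markers 8 were below 0 (median -0.29). All 8 fibroblast markers were above 0 with a median of 0.73 and a summed signal of 40279 units in genistein denervated and 23680 in control denervated muscle. Of 7 endothelial markers 6 were above 0 (median 0.54, summed signal 2659 and 1820 units), and 7 of 7 measured macrophage and leukocyte markers were (median 0.92, summed signal 6501 and 3729 units). Adipocyte markers were above 0 for 5 of 6 (median 0.98), with Lep under the floor on every array, and Schwann cell markers for 4 of 4 (median 0.48), with Sox10 and Ngfr under the floor, and both measured satellite cell markers were below 0 (median -0.49). In sham muscle the medians were 0.10 for fibroblast, -0.08 for endothelial, 0.12 for macrophage and leukocyte, -0.07 for adipocyte, -0.07 for Schwann cell and -0.18 for slow-fibre markers. Nr2f2 was at 0.32 there. The part of these cells in the receptor values was not tested.

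In sham muscle Rara was the single receptor past 2-fold between the diets, 2.10-fold higher on genistein. That is 1 of 22 measured receptors, against 0.323% of all genes, and 0 of 22 were at least 2-fold lower, against 0.286%. The value rests on 1 probe set, and on a control sham reading of 87.1 units, close to the floor. With the floor at the 60th percentile Rara had no ratio, since both sham readings were then under it, and in the remaining alternatives it stayed at least 2-fold higher. Over the measured receptors the median was 0.08, beside 0.00 over all genes. Apart from Rara and the NR4A receptors described next, the receptors above the floor in both sham pools lay between -0.38 for Nr2f6 and 0.37 for Rxrg and Nr0b2, with Rarb at -0.35, Nr3c2 at -0.23, Rxrb at 0.25 and Rora at 0.23. Rarg was at a bound of -0.25, and with the lower floor of 27.2 units its ratio was -0.89. Nr3c2, Rxrb, Rora, Nr4a1, Nr1i2, Nr3c1, Thra, Thrb, Nr1h2, Nr1h3, Nr1d2, Nr2c1 and Esrrb were all closer to 0 than the probe-set SD of 0.26.

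**Figure D3:**
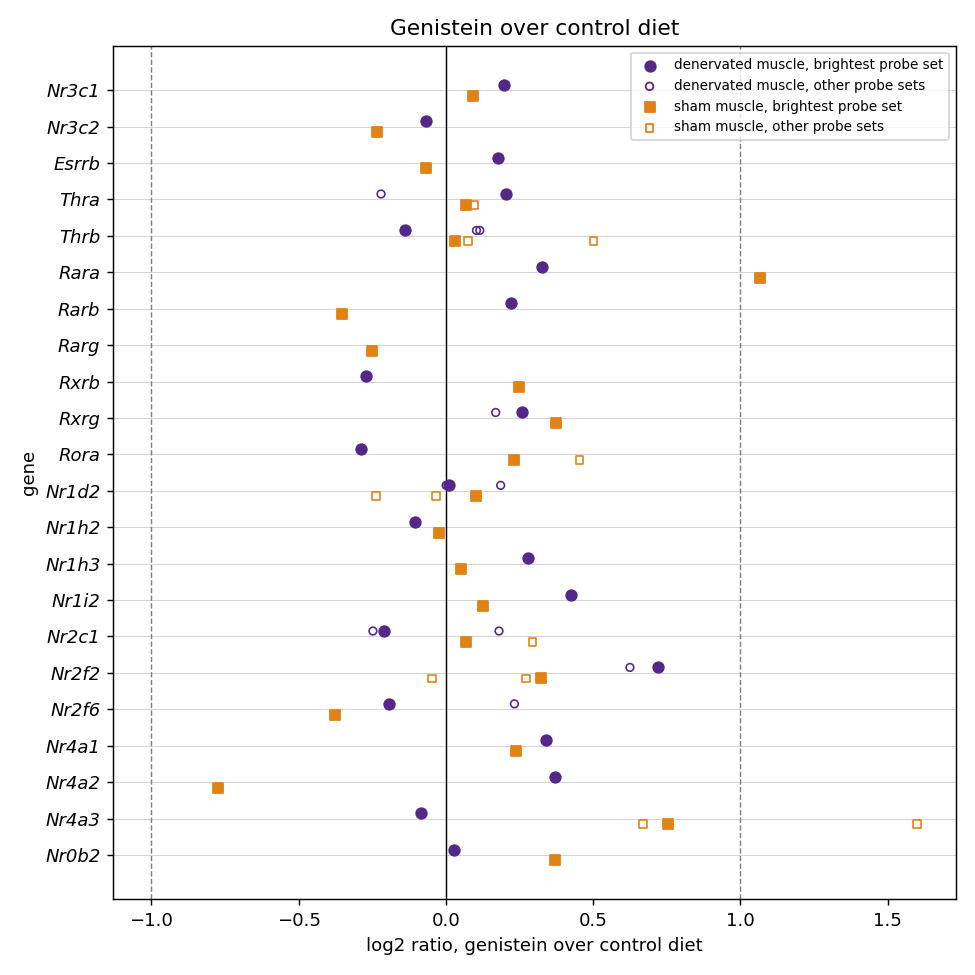
Log2 ratio of genistein over control diet for the 22 receptors, in denervated muscle (circles) and in sham muscle (squares); filled symbols are the brightest probe set, open symbols the gene's other probe sets, dashed lines mark 2-fold. Nr2f2 is furthest right among the filled circles at 0.72, and among the squares Rara is at 1.07, Nr4a2 at -0.77 and the 3 probe sets of Nr4a3 between 0.67 and 1.60.

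The 3 NR4A receptors, products of immediate early genes, did not share one pattern. Nr4a3, NOR1, had 3 probe sets, and each was highest in genistein sham muscle. The brightest read 73.6 units in genistein denervated, 137 in genistein sham, 83.6 in control denervated and 80.9 in control sham muscle. The next read 72.1, 137, 53.2 and 86.1 units in genistein denervated, genistein sham, control denervated and control sham muscle, and the last 36.2, 239, 7.7 and 75.0 units. In sham muscle the diet log2 ratios of these probe sets were 0.75, 0.67 and at least 1.60, and on genistein the denervated pool was lower by at least 0.79, at least 0.80 and at least 1.60. On the control diet the first gave a denervation ratio of 0.05, the second was at least 0.13 lower, and the last was under the floor in both pools.

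Nr4a2, Nurr1, read 102 units in genistein denervated, 87.4 in genistein sham, 58.0 in control denervated and 149 in control sham muscle. Control sham was the highest pool here, in contrast to Nr4a3, and control denervated the lowest. The diet log2 ratio was -0.77 in sham muscle, and the control denervated pool was at least 1.89-fold lower than control sham, while the ratio on genistein was 0.22. A second Nr4a2 probe set read under 22 units on every array (7.8 in genistein denervated, 12.0 in genistein sham, 9.2 in control denervated and 21.3 in control sham muscle). Nr4a1 was slightly higher on genistein in both operations, by 0.34 in denervated and 0.24 in sham muscle.

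**Figure D4:**
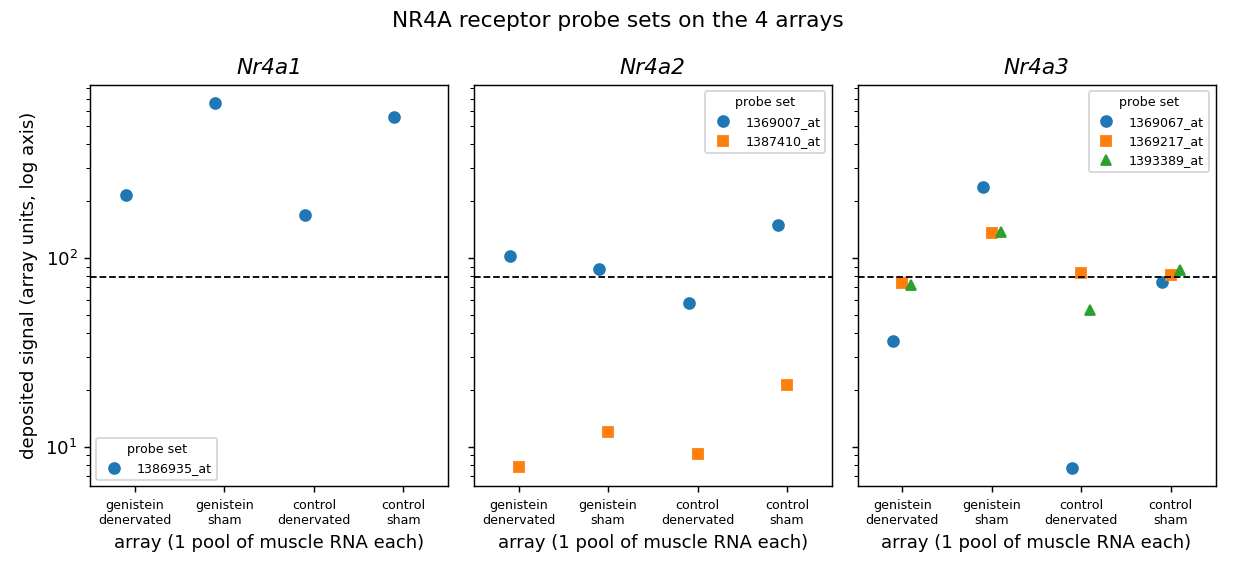
Deposited signal of every NR4A probe set on the 4 arrays, on a log axis, with the floor of 78.9 units as a dashed line. Nr4a1 separates by operation, Nr4a2 is highest in control sham muscle at 149 units, and the 3 Nr4a3 probe sets are each highest in genistein sham muscle (137, 137 and 239 units).

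The denervation log2 ratio on genistein minus that on the control diet compares the effect of nerve loss between diets. It reached 1 log2 unit for 1 of 22 receptors, Nr4a2 (1.15), against 2.59% of all genes, and this value includes a control denervated reading under the floor. With the mean of probe sets Nr4a2 was at 0.57 and Nr4a3 at -1.04 instead, so the receptor past 1 log2 unit depends on how probe sets are combined. The second Nr4a2 probe set was under the floor on every array. Averaging it in only made the Nr4a2 value smaller and gives no second measurement. Next in size were Nr4a3 (-0.84), Rara (-0.74), Rarb (0.58), Rxrb (-0.52) and Rora (-0.52), beside a probe-set SD of 0.34. The median over the receptors was 0.10, and -0.00 over all genes. The denervation and the diet ratios share arrays, so they are not independent of each other.

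Genes that work with the receptors were described from 10 lists, by counts of measured genes at least 2-fold higher or lower in denervated muscle. With lists of 2 to 16 measured genes, 1 gene is already near or above the share over all genes, which was 4.96% higher and 6.57% lower on genistein, and 5.04% higher and 7.63% lower on the control diet. Corepressors, which silence receptor targets, had medians of 0.31 on genistein and 0.46 on the control diet, with 1 of 11 higher on each diet, and 1 of 11 lower on genistein and 0 of 11 on the control diet, close to the shares over all genes. Trim24, a cofactor of retinoic acid receptors, was higher by 1.27 on genistein and 1.16 on the control diet, and Hr, a corepressor and target of thyroid hormone receptors, was at -1.14 and -0.90. The list of coactivators had medians of -0.07 and 0.12, with 0 of 15 higher on either diet, 2 of 15 lower on genistein and 1 of 15 on the control diet. Those were Ppargc1b, a coactivator of oxidative metabolism (-1.58 and -2.01), and Phb2, a prohibitin kept in that list although it is known to repress oestrogen receptor activity (-1.01 and -0.86). Among 9 steroid receptor chaperones Fkbp4, an Hsp90 partner, was lower at -1.31 on genistein and at -0.995 on the control diet, and the medians were 0.05 and 0.14.

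Of the known oestrogen-responsive genes 3 of 8 were above 0 on genistein in denervated muscle with a median of -0.04, and in sham muscle 7 of 9 with a median of 0.07, and 0 passed 2-fold in either. Over all genes 1.02% were at least 2-fold higher and 0.124% lower in denervated muscle, and 0.323% and 0.286% in sham muscle. Ccn5, a secreted matricellular protein, had the largest ratio of the list in both comparisons, 0.82 in denervated and 0.96 in sham muscle. Greb1, Pgr, Bcl2, Pdzk1 and Areg of this list were under the floor on all arrays. With nerve loss the proto-oncogene Myc was higher by 1.53 on genistein and 1.76 on the control diet, and the cell cycle gene Ccnd1 was at -0.75 and -1.40, while the list medians were 0.05 and 0.35.

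Glucocorticoid-responsive genes likewise split with nerve loss, with medians of -0.04 on genistein and 0.18 on the control diet, 2 of 13 and 4 of 14 higher (4.96% and 5.04% of all genes) and 1 of 13 and 1 of 14 lower (6.57% and 7.63%). Sgk1, a kinase induced by corticosteroids, was higher by 1.45 on genistein and 1.41 on the control diet, Mt2A, a metallothionein, by 0.75 and 1.28, and Dusp1, a phosphatase of stress kinases, was at -1.47 and -2.29. In sham muscle 12 of 13 of these genes were above 0 on genistein with a median of 0.17, and 1 of 13 was at least 2-fold higher, against 0.323% of all genes. That gene was Per1, higher by at least 1.60, with a control sham reading of 64.9 units, under the floor. The count above 0 was not set against all genes. In denervated muscle 7 of 14 of the glucocorticoid-responsive genes were above 0 (median 0.03).

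Thyroid hormone genes had medians of -0.04 on genistein and -0.34 on the control diet after nerve loss, with 1 of 9 and 1 of 8 at least 2-fold higher (4.96% and 5.04% of all genes) and 3 of 9 and 1 of 8 lower (6.57% and 7.63%). Crym, which binds thyroid hormone in the cytosol, was at -1.54 and -1.34, and Thrsp, a lipogenic thyroid hormone target, at 1.30 and 1.02. The deiodinases Dio1 and Dio2 were under the floor on all arrays. Retinoid genes had medians of -0.04 on genistein and -0.50 on the control diet, with 8 of 16 and 15 of 16 below 0. At least 2-fold higher were 2 of 16 and 1 of 16 (4.96% and 5.04% of all genes), and lower 3 of 16 and 4 of 16 (6.57% and 7.63%). Aldh1a1, the 1 gene above 0 on the control diet, was higher by 1.01 on genistein and 1.56 on the control diet. Fibroblast markers had medians of -0.61 and -1.18 and endothelial markers of -0.41 and -1.02 in the same comparisons, and their part in the retinoid values was not tested. Cyp26b1, which breaks down retinoic acid, was at -1.06 and -1.77, and Crabp1, which binds it, at -1.29 and -1.67. Rbp4, the plasma retinol carrier, was at 1.63 on genistein and -0.38 on the control diet, and 1.42 log2 units higher on genistein in denervated muscle, where 14 of 16 retinoid genes were above 0 (median 0.22). In that comparison the medians of adipocyte, macrophage and leukocyte, and fibroblast markers were 0.98, 0.92 and 0.73, and their part in it was not tested.

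Liver X receptor targets stood with the liver X receptors in part. Medians after nerve loss were 0.63 on genistein and 0.27 on the control diet, over 11 genes of which Nr1h3 is a member. At least 2-fold higher were 3 of 11 on genistein and 2 of 11 on the control diet, against 4.96% and 5.04% of all genes. Lower was 1 of 11 on each diet, against 6.57% and 7.63%. Abca1, the cholesterol exporter, read 1562 units in genistein denervated and 497 in genistein sham muscle, and 1408 units in control denervated and 299 in control sham muscle (log2 ratios 1.65 and 2.24). Scd, a fatty acid desaturase, was higher by 3.33 and 1.95, and Lpl, lipoprotein lipase, was at -1.37 and -1.37. Between the diets 3 of 11 were at least 2-fold higher on genistein in denervated muscle (median 0.53), against 1.02% of all genes, with Scd at 1.61, beside the adipocyte markers given above, whose part in it was not tested. In sham muscle the median was 0.22 and 0 of 11 passed 2-fold, where 0.323% of all genes were higher and 0.286% lower.

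Enzymes of steroid conversion had medians of 0.04 on genistein and -0.09 on the control diet after nerve loss, with 2 of 12 and 3 of 13 at least 2-fold higher (4.96% and 5.04% of all genes) and 0 lower (6.57% and 7.63%). Hsd17b7, which acts on oestrone and in cholesterol synthesis, read 466 units in genistein denervated and 110 in genistein sham muscle, and 462 units in control denervated and 100.1 in control sham muscle (log2 ratios 2.08 and 2.21). Hsd11b2, which inactivates corticosterone and thereby shields the mineralocorticoid receptor, read 276 and 83.9 units in genistein denervated and genistein sham muscle, and 222 and 25 units in control denervated and control sham muscle, higher by 1.72 and at least 1.5. H6pd, which supplies the cofactor that lets Hsd11b1 make active glucocorticoid, was at 0.62 and 1.25, and Hsd11b1 itself at -0.58 and -0.83. Cyp19a1, the aromatase that makes oestrogen, was under the floor on all arrays. Of the vitamin D genes 3 reached the floor, with 3 measured on genistein and 2 on the control diet (medians -0.39 and -0.40). At least 2-fold higher were 0 of 3 and 1 of 2 (4.96% and 5.04% of all genes). Lower were 0 of 3 and 1 of 2 (6.57% and 7.63%). Cyp27a1, a sterol hydroxylase, was at 0.78 and 1.16. Spp1 went the other way, at -0.82 on genistein and at a bound of -1.97 on the control diet.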

How the data were processed

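Pooled muscle RNA of 8 rats per group was measured on 4 Affymetrix arrays, 1 per group. The authors deposited a linear signal intensity for each of 31099 probe sets and array. GCOS 1.1 is the software in the submitters' processing notes. The mean deposited intensity without the outer 2% at each end was 500.2 on every array, so the authors' scaling was kept. The scaling target and genome build are not given in the sources used here. After removal of 57 controls, 20826 probe sets had 1 gene symbol, 436 had several and 9780 had none listed, and only the first were named. The identifiers of 35 receptors matched the GRCr8 gene table under the same symbol.

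Signals under the floor were raised to it and log2 ratios were formed (Python 3.11.15, numpy 2.4.6, pandas 2.3.3, figures with matplotlib 3.10.9). Genes with either array of a comparison at the floor or above it were taken as measured. With 1 array per group there is no test; counts use a fixed size of 2-fold, and the number of arrays limits the precision. Scatter was the SD of probe-set log2 ratios about their gene's mean, over 5373 probe sets of 2310 genes above the floor on all arrays, which leaves out differences between pools. The ratio step was tested on simulated data.

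Alternatives were floors at the 20th and 60th percentile, median scaling, quantile normalization, scaling on 18 bacterial spike-in probe sets, and the mean of a gene's probe sets. For that mean, signals under the floor were first raised to it. A probe set under the floor in both pools then adds no difference and makes the ratio smaller. The receptors and the 18 gene lists were chosen with earlier results of these data known. Beyond the receptors, the genes named are at most 3 per list, with the largest log2 ratios of at least 1 among genes above the floor on both arrays of a comparison. Chrna1, Chrng and Myog were named in any case as the check of the labels. Ccn5, Hsd11b1, Greb1, Bcl2, Pdzk1, Areg, Dio1, Dio2, Cyp19a1, Lep, Sox10, Ngfr, Aldh1a1, Per1 and Spp1 were named after their values were seen.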

Additional observations from a re-analysis of the deposited data

Results flagged for a closer look

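With 1 array per group no outlier could be sought. Receptors whose log2 ratio had opposite signs in the groups compared are listed here with the denervation ratio on genistein minus that on the control diet, a difference that was not tested. The sign of the denervation ratio differed between the diets for Nr4a2 (1.15), Nr4a3 (-0.84), Rara (-0.74), Nr1i2 (0.30) and Nr2c1 (-0.28). The sign of the diet ratio differed between denervated and sham muscle for Nr4a2, Nr4a3 and Nr2c1 with these same values, and for Rarb (0.58), Rxrb (-0.52), Rora (-0.52), Esrrb (0.24) and Thrb (-0.17). The probe-set SD of this difference was 0.34, and Nr1i2, Nr2c1, Esrrb and Thrb lay inside it.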

How the results depend on the processing

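The denervated and sham muscles of a diet came from opposite legs of the same animals, so each denervation ratio compares paired pools. No paired test was run, because each diet has 1 such pair, and no array could be left out. Spike-in scaling moved the median denervation ratio on genistein to 0.36, left 1 receptor at least 2-fold lower on each diet and made 2 higher on genistein; on the control diet the median became 0.11. Quantile normalization and the mean of probe sets each left 0 receptors at least 2-fold higher on genistein after nerve loss, and the mean of probe sets also 0 on the control diet. In the control diet mean, the dimmer Rora probe set was under the floor in both pools. With the floor at the 20th percentile 2 receptors were higher and 6 lower after nerve loss on the control diet, and 1 was lower on genistein in sham muscle. In sham muscle 0 receptors were at least 2-fold higher on genistein with the floor at the 60th percentile and 2 with the mean of probe sets. The cause was not tested. Median scaling changed none of the counts beyond 1.5 times, and no ratio of at least 2-fold turned its sign under any alternative tried. The sign of the median receptor ratio also turned for the diet in denervated muscle (-0.03 at the 60th percentile) and for the difference between diets (-0.08 at the 60th percentile and -0.01 under median scaling). Signals near the floor limit Rara, Rarg, Nr1i2, Nr4a2 and Nr4a3.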
